A study of Verbena bonariensis with 2 samples.

Results

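The most abundant transcripts of Verbena bonariensis leaves were taken as the assembled transcript clusters whose mean level over an untreated and a cadmium library was above 1000 CPM (counts per 1000000 counts of the library). Of 63021 clusters, 107 (0.170%) met this rule, and their sum was 22.9% of all untreated counts and 25.2% of all cadmium counts. The clusters were chosen by their levels in both libraries, so the levels are a description and carry no test. The leaves came from plants of the ornamental perennial V. bonariensis, cultivar Finesse, about a month old, and RNA sequencing was run on total RNA. The untreated group had 1 library and the cadmium group, given 350 µmol/L cadmium, had 1 library, and neither cadmium form, exposure time nor pooling of plants is given in the sources used here. The series description mentions 2 kinds of leaves without naming them, so a difference of that sort and cadmium cannot be told apart.

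In leaves of flowering plants, a small set of nuclear genes for photosynthesis usually supplies a large part of the messenger RNA. They include the genes for the small subunit of Rubisco, the carbon-fixing enzyme, and for the chlorophyll a/b-binding proteins, which collect light. Cadmium is a toxic metal that plants bind with small cysteine-rich proteins, the metallothioneins, and with phytochelatins, which are made from glutathione. The tables give neither gene names nor sequences for the clusters, so which of the 107 clusters belong to such genes was not analysed here, and leaf marker genes could not be checked.

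Estimated counts summed to 17455521 without and 16476612 with cadmium. Every one of the 107 clusters was well covered, with between 5502 and 287486 untreated and between 13644 and 270839 cadmium counts. The exact 95% interval of the cadmium to untreated ratio spanned between ±0.533% and ±2.81% of the ratio, with a median of ±1.62%. These intervals cover counting error only. With 1 library per group there was no replicate, the spread between plants is unknown, and every comparison is between these 2 libraries.

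The cadmium to untreated ratio was taken after TMM scaling (a trimmed mean of the log ratios sets the relative library size), and it lies 1.04-fold above the plain ratio of CPM values for every cluster. A cluster was called higher or lower when its interval lay wholly above 2 or wholly below 0.5. In bulk leaves, a different number of cells of a type and a different amount of RNA per cell cannot be told apart.

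A trio of clusters stood above all others in both libraries. Cluster-7663.22653 had 16469.6 CPM without and 15501 CPM with cadmium, a ratio of 0.982 (95% interval 0.977 to 0.988). Cluster-7663.22791 had 15343 and 16438 CPM, a ratio of 1.12 (1.11 to 1.12), so the leading pair changed places between the libraries. Next in both libraries was Cluster-7663.22830, with 9552 CPM without and 10329 CPM with cadmium, a ratio of 1.13 (1.12 to 1.14). Together the leading 3 clusters took 4.14% of untreated and 4.23% of cadmium counts, and their effective lengths were 1006, 878 and 852 bases. The effective length is the length that the authors' FPKM values (fragments per kilobase of cluster and per 1000000 counts) imply when each count is set against its FPKM and the library total.

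The next most abundant clusters were mostly near a ratio of 1, apart from Cluster-7663.22896, moderately higher with cadmium, and a pair that was much higher. Cluster-7663.22739 had 5111 and 4703 CPM, a ratio of 0.961 (0.951 to 0.970). Cluster-7663.22633, with a short effective length of 389.5 bases, had 4954 and 4599 CPM, a ratio of 0.969 (0.960 to 0.979). Cluster-7663.23512 had 4056 and 3793 CPM, a ratio of 0.976 (0.966 to 0.987). All 3 were slightly lower in the cadmium library. Cluster-7663.22552 had 3581 and 3489 CPM, with a ratio of 1.02 (1.01 to 1.03) after TMM scaling but a lower plain CPM with cadmium, so its direction depended on the scaling. Cluster-7663.22896 had 3051 and 3664 CPM, a ratio of 1.25 (1.24 to 1.27). The pair that completed the 10 highest mean levels owed its place to the cadmium library. Cluster-7663.22860 went from rank 15 at 2818 CPM without cadmium to rank 5 at 5886 CPM with cadmium. Cluster-7663.23056 went from rank 38 at 1902 CPM to rank 4 at 6064 CPM.

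Abundance was spread unevenly over the 107 clusters. Those 3 clusters with a mean above 5000 CPM held 4.14% of untreated counts, the 35 with 2000 to 5000 CPM held 9.41%, and the 69 with 1000 to 2000 CPM held 9.40%. In each library 28 clusters were enough for 50% of the counts of the whole set. The 10 highest in each library held 30.04% of the set's untreated and 29.8% of its cadmium counts, so the concentration within the set was similar. The median level was 1728 CPM without and 1817 CPM with cadmium.

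**Figure D1:**
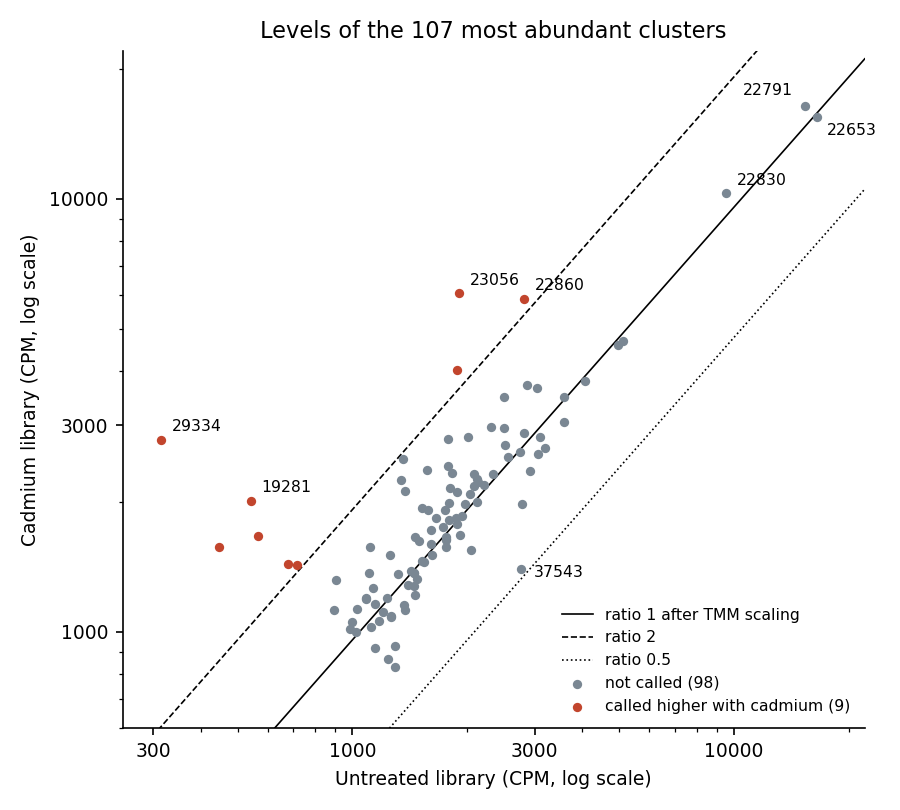
Level of each of the 107 clusters in the untreated library (x axis, CPM, log scale) and the cadmium library (y axis, CPM, log scale), 1 point per cluster, labelled with the second number of the identifier. Lines mark ratios of 1, 2 and 0.5 after TMM scaling; the 9 red points lie above the ratio of 2, no point lies below 0.5, and the 3 leading clusters sit near the line of equal level.

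Most of the 107 clusters differed little between the libraries. A ratio between 0.8 and its inverse was found for 73 clusters (68.2%), against 70.7% of the 1467 clusters with a mean of 100 to 1000 CPM and 45.6% of the 36565 clusters that reached 1 CPM in either library. The less abundant clusters carry more counting error. The 73 clusters held 17.6% of untreated and 17.3% of cadmium counts. Because counts were high, the interval excluded a ratio of 1 for 101 of the 107 clusters, 64 above and 37 below it. A ratio off 1 by more than counting error is therefore the rule in this set, and without replicates it cannot be read as a difference between conditions.

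The middle of the set lay slightly above the rest of the transcriptome. The median log2 ratio was 0.08 over the 107 clusters, with quartiles of -0.05 and 0.33. The median was -0.01 over the clusters of 100 to 1000 CPM and -0.00442 over all 36565. Ratios above 1 were found for 67 of the 107 clusters (62.6%), against 49.4% and 49.7% in those 2 groups. Without TMM scaling every ratio was lower by the same factor. Then 57 of the 107 (53.3%) lay above 1, with a median log2 ratio of 0.02, against 40.3% of the clusters of 100 to 1000 CPM (median -0.07) and 43.9% of all 35971 with a length (median -0.08).

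In 9 clusters the ratio was called higher with cadmium, 8.41% of the 107, beside 4.02% of all 36565 clusters called higher and 2.52% of those with 100 to 1000 CPM. No cluster was called lower, beside 3.85% and 1.09%. The ratios of the 9 ranged from 2.09 to 9.20. Of these 9, 6 were at or under 1000 CPM in the untreated library and entered the set through their cadmium level. Among the 92 clusters above 1000 CPM in both libraries, 3 were called higher. The 8.41% therefore depends on how the set was chosen.

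The widest difference was that of Cluster-7663.29334, which had 5502 counts (315 CPM) without and 45775 counts (2778 CPM) with cadmium, a ratio of 9.20 (8.95 to 9.46). It ranked 382 without and 21 with cadmium, and its effective length was 1672 bases. Cluster-7663.19281 had 541 and 2009 CPM, a ratio of 3.88 (3.79 to 3.97). Cluster-7663.23286 had 447 and 1567 CPM, a ratio of 3.66 (3.57 to 3.76). These 3 clusters were far below 1000 CPM in the untreated library and above it in the cadmium library. They entered the set through their cadmium level, so large ratios were built in by the rule. They were also the 3 that stayed called when a coefficient of variation of 0.2 between libraries of the same group was assumed. With an assumed 0.4, Cluster-7663.29334 alone stayed called, with an interval of 3.16 to 26.8. Neither spread was measured, and how many of all clusters stay called under them was not computed.

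Of the other 6 called clusters, 3 were abundant in both libraries. Cluster-7663.23056 (1902 and 6064 CPM) had a ratio of 3.33 (3.29 to 3.37), Cluster-7663.22860 (2818 and 5886 CPM) 2.18 (2.16 to 2.20). Cluster-7663.22527 had 1882 and 4034 CPM, a ratio of 2.24 (2.21 to 2.27), and moved from rank 40 to rank 8. The remaining 3 passed 1000 CPM with cadmium only. Cluster-7663.22957 had 566 and 1669 CPM, a ratio of 3.08 (3.01 to 3.15), and at 702.5 bases was the shortest of the 9. Cluster-7663.23555 had 679.6 and 1436 CPM, a ratio of 2.21 (2.16 to 2.25). Cluster-7663.23079 had 714 and 1427 CPM, a ratio of 2.09 (2.04 to 2.13), and was no longer called with library totals or with FPKM ratios. The other 8 stayed called in both.

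Below these, 5 clusters had intervals wholly above 1.5 without reaching 2, and they are named here after their values were seen. The highest was Cluster-7663.23493, with 1353 and 2508 CPM, a ratio of 1.93 (1.90 to 1.97). Cluster-7663.22025 had 1339.8 and 2237 CPM, a ratio of 1.74 (1.71 to 1.77). The ratios of Cluster-7663.22857, Cluster-7663.22205 and Cluster-7663.22854 were 1.63, 1.61 and 1.58. At the 1.5-fold limit 14 clusters (13.1%) were higher and 1 (0.935%) lower, beside 6.86% and 6.43% of all clusters. At a 3-fold limit 5 (4.67%) were higher and none lower, beside 2.6% and 2.77%.

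At the lower end the largest deficit stopped just short of the limit. Cluster-7663.37543 had 48304 counts (2767 CPM) without and 23031 counts (1398 CPM) with cadmium, a ratio of 0.527 (0.519 to 0.536), 1.90-fold lower. Cluster-7663.22937 had 1292 and 828 CPM, a ratio of 0.669 (0.655 to 0.683). Cluster-7663.22336 had 1243 and 863 CPM, a ratio of 0.725 (0.710 to 0.741). These were the only ratios under 0.73, and none of them reached 0.5. Cluster-7663.23094 had 2774 and 1974 CPM, a ratio of 0.743 (0.732 to 0.753). Cluster-7663.22217 had 1290.4 and 929 CPM, a ratio of 0.752 (0.737 to 0.768). In all, 6 clusters had a ratio of 0.8 or less, and 28 lay above the inverse of 0.8.

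**Figure D2:**
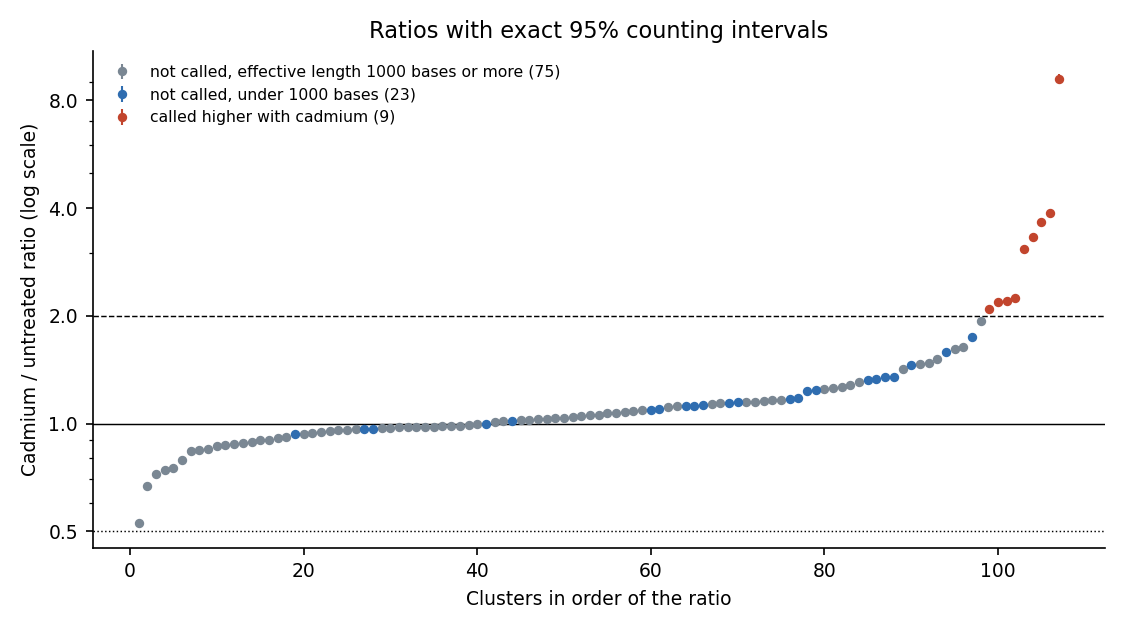
Cadmium to untreated ratio after TMM scaling (y axis, log scale) of the 107 clusters in order of the ratio (x axis), with exact 95% counting intervals, most of them smaller than the point. The 9 called clusters reach from 2.09 to 9.20, the lowest ratio is 0.527, and 20 of the 23 blue points (not called, effective length under 1000 bases) lie above 1.

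The rule itself bears on how many higher and lower clusters the set holds. Because it averages both libraries, a cluster rare in one library entered when it was abundant enough in the other, and such a cluster had to differ. Of the 107 clusters, 92 were above 1000 CPM in both libraries, and 3 of these were called higher. A further 10 were at or under 1000 CPM in the untreated library, with ratios from 1.08 to 9.20, and 6 of the 9 called clusters were among them. The other 5 were at or under 1000 CPM in the cadmium library, with ratios from 0.669 to 1.02. Choosing by the untreated library alone gave 104 clusters, of which 3 were called higher and 2 lower. Choosing by the cadmium library alone gave 103 clusters, of which 9 were called higher and 0 lower. Beside these counts, 4.02% of all 36565 clusters were called higher and 3.85% lower.

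The 2 lower clusters, named after their values were seen, had been among the most abundant in the untreated library and left the set through their low cadmium level. Cluster-7663.22878 had 1194 and 209 CPM, a ratio of 0.183 (0.177 to 0.190). Cluster-7663.23025 had 1154 and 462 CPM, a ratio of 0.418 (0.407 to 0.430). In the other direction, Cluster-7663.22676 alone was above 1000 CPM with cadmium and not in the set, at 565 and 1102 CPM, a ratio of 2.04 (1.99 to 2.09) that was not called. The number of lower clusters depended on the choice of set, at 0 for the 107, 0 above 1000 CPM in both libraries, 2 by the untreated library alone and 3 for a mean above 500 CPM.

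At the limit itself, the 3 clusters just inside were Cluster-7663.23010, with a mean of 1007 CPM, Cluster-7663.23286, with 1007 CPM, and Cluster-7663.24176, with 1001 CPM. Just outside were Cluster-7663.22398, with 944 CPM, Cluster-7663.22710, with 932 CPM, and Cluster-7663.23024, with 932 CPM. The neighbours differed in their ratios, at 1.31, 3.66 and 1.08 inside and 0.985, 0.844 and 0.826 outside.

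The share of counts held by the set was larger in the cadmium library by 2.21 percentage points, at 22.9% (22.92 to 22.96) against 25.2% (25.13 to 25.18). These intervals cover counting error only, and the clusters were chosen by their levels in the same libraries, so the gain is a description. Its size depended on the choice. Clusters chosen by the untreated library alone went from 23.0% to 24.1%, and those chosen by the cadmium library alone from 22.4% to 24.8%. Within the set, gains and losses were both common, with 57 clusters holding a larger and 50 a smaller share with cadmium. The gains summed to 3.44 and the losses to -1.23 percentage points. The 9 called clusters went from 0.986% to 2.69%, a gain of 1.70 points, and were chosen for their ratios. The other 98 clusters went from 22.0% (21.94 to 21.98) to 22.5% (22.45 to 22.49), a gain of 0.510 points. Single clusters with a large part in the gain were Cluster-7663.23056, at 0.416 points, Cluster-7663.22860, at 0.307, and Cluster-7663.29334, at 0.246. The largest loss was that of Cluster-7663.37543, at -0.137 points, followed by the leading Cluster-7663.22653, at -0.0969 points on a ratio close to 1.

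Ranks by count moved little for most of the set. The median shift was 10 places, 55 clusters moved by 10 places or fewer and 83 by 20 or fewer. Only 4 kept their exact rank, 42 stood higher and 61 lower in the cadmium library. Of the 24 that moved by more than 20 places, 15 stood higher with cadmium and 9 lower. Of the 100 most abundant clusters of each library, the libraries shared 90 when ranked by count and 80 when ranked by FPKM. Across the 107 clusters, whose choice rests on both libraries, untreated and cadmium counts had a Spearman rho of 0.789.

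A few clusters crossed most of the range. Cluster-7663.29334 climbed 361 places, Cluster-7663.23286 climbed 186, from rank 254 to rank 68, and Cluster-7663.19281 climbed 152, from rank 195 to rank 43. The largest drop in rank was from 18 to 76, by Cluster-7663.37543. Cluster-7663.22937 went from rank 79 to 122, the lowest cadmium rank in the set. Cluster-7663.23732 went from rank 32 to 69 on a modest ratio of 0.791 (2039.9 and 1547 CPM). A drop of 37 places thus went with a smaller difference in level than a climb of 32 places by Cluster-7663.22527; neighbouring ranks lie close together in CPM below the leading clusters.

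**Figure D3:**
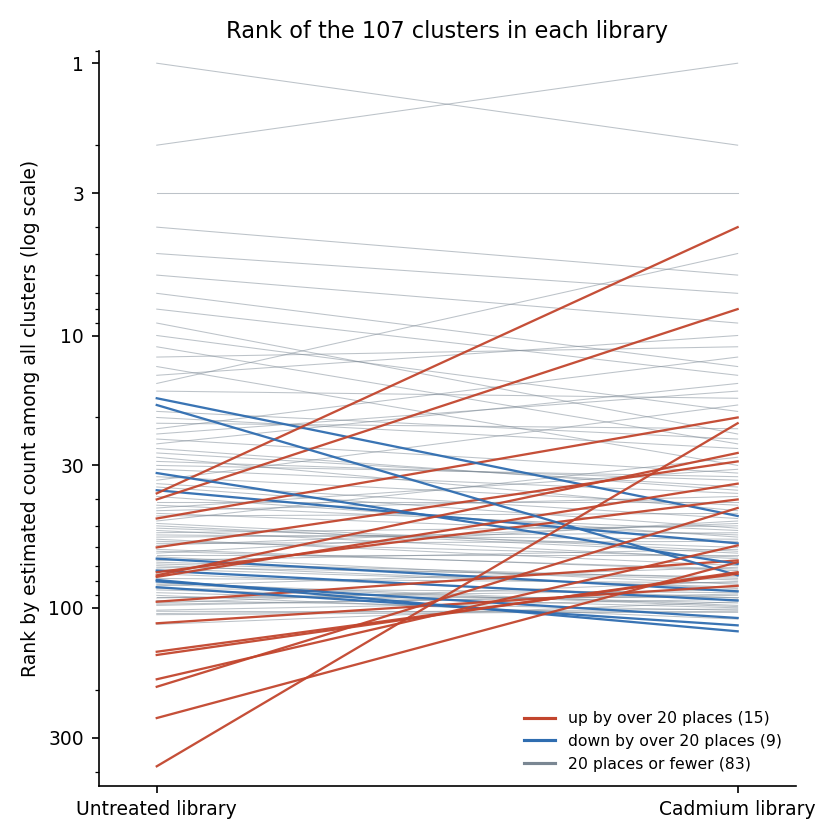
Rank by estimated count among all 63021 clusters in the untreated (left) and cadmium (right) library, log scale with rank 1 at the top, 1 line per cluster for the 107 clusters. The 15 red lines climb by over 20 places, the steepest from 382 to 21, and the 9 blue lines drop by over 20 places, the longest from 18 to 76.

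Effective lengths spanned from 79.5 to 6623 bases, an 83.3-fold range, with a median of 1479.5 bases and quartiles of 1027 and 2153 bases. The clusters of 100 to 1000 CPM had a median of 1543 bases and all clusters passing 1 CPM a median of 1181 bases. Under 300 bases were 2 of the 107 clusters (1.87%), against 1.77% of the clusters of 100 to 1000 CPM and 7.66% of all clusters with a length. A further 22 lay between 300 and 1000 bases, 51 between 1000 and 2000 and 32 above that. Length and mean CPM were weakly related across the 107 clusters (Spearman rho -0.195).

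The 3 shortest clusters ranked higher by FPKM than by count in both libraries, and 1 of them was among the most abundant by either. Cluster-7663.22625, with an effective length of 79.5 bases, had 1801 and 2144 CPM and ranked 44 and 39 by count. Its FPKM of 22660.1 without and 26487 with cadmium was the highest of all clusters in both. A length this small makes FPKM sensitive to the assumed fragment length, and its FPKM ratio lay 1.79% below its CPM ratio, the widest such gap in the set. Cluster-7663.21923, at 277.5 bases, had 1522 and 1934 CPM and ranked 7 by FPKM in both libraries against 63 and 48 by count. Cluster-7663.22633, at 389.5 bases, ranked 4 and 5 by FPKM and 5 and 7 by count, so it was abundant on both scales.

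The longest clusters showed the reverse. Cluster-7663.23530, at 6623 bases, ranked 11 and 25 by count with 3072 and 2576 CPM, and 227 and 274 by FPKM with values of 464 and 389. Cluster-7663.22529, at 6141 bases, had 1085 and 1194 CPM and ranked 769 and 675 by FPKM. Cluster-7663.22775, at 5737 bases, had 1794 and 1817 CPM and ranked 378 and 365 by FPKM. None of the 3 was called, with ratios of 0.875, 1.15 and 1.06. The median untreated FPKM was 2415 in clusters under 1000 bases, 1204 from 1000 to 2000 bases and 564 from 2000 bases. Effective length was itself taken from count and FPKM, so at similar CPM a fall of FPKM with length follows from the arithmetic. Of the 107 clusters with the highest mean FPKM, 69 belonged to the set, and the other 38 had a median effective length of 277.5 bases. Of these 38, 22 were under 300 bases and the shortest was 2.08 bases, so their FPKM is sensitive to the assumed fragment length.

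**Figure D4:**
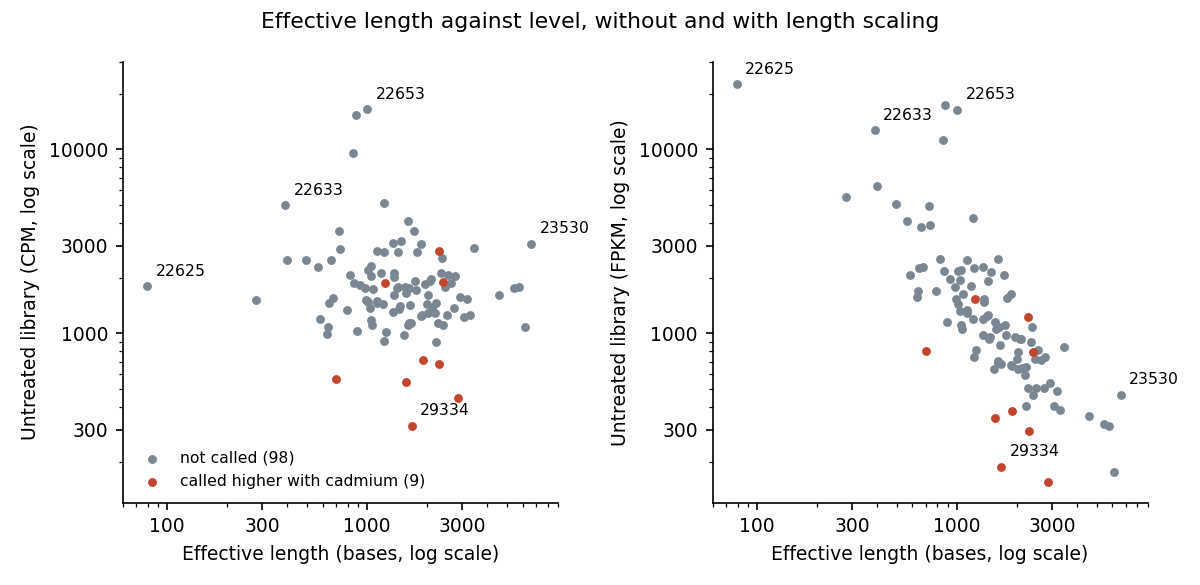
Effective length (x axis, bases, log scale) against the untreated level in CPM (left) and in FPKM (right), both on log scales, 1 point per cluster, red for the 9 called clusters. In CPM the points form a broad band with a weak fall over length. In FPKM they fall with length, with wide scatter, from 22660.1 at 79.5 bases to 464 at 6623 bases. The lowest FPKM, 156, is at 2857 bases. The fall in FPKM follows from the arithmetic, as length was taken from count and FPKM.

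Short clusters of the set more often had higher levels with cadmium. Under 1000 bases, 21 of 24 clusters had a ratio above 1, with a median log2 ratio of 0.21, although only Cluster-7663.22957 among them was called. From 1000 to 2000 bases 27 of 51 lay above 1 (median 0.03), and from 2000 bases 19 of 32 (median 0.06). With library totals the numbers were 19 of 24, 22 of 51 and 16 of 32. Among clusters of 100 to 1000 CPM, 203 of 407 short clusters (49.9%) lay above 1, against 57.9% from 1000 to 2000 bases and 39.5% from 2000 bases. Among all clusters with a length the shares were 49.9%, 50.7% and 43.6%. The longest class was thus the lowest in both groups, and the short class stood below or close to the middle one there. The length classes were compared after the values were seen, with no test of the difference, and whether short clusters share a gene family was not analysed here.

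Most clusters of the set carried whole-number counts. In 72 of 107 (67.3%) the estimated count was within 0.005 of a whole number in both libraries, against 66.2% of the clusters of 100 to 1000 CPM and 36.7% of all. Some counting tools divide reads that match several similar sequences, which gives fractional counts. The tool used is not given in the sources used here, and the 35 clusters with fractional counts were not examined for shared reads. Among the 9 called clusters 5 had whole and 4 fractional counts, the latter being Cluster-7663.29334, Cluster-7663.19281, Cluster-7663.22957 and Cluster-7663.23555. Clusters with whole counts had a median log2 ratio of 0.04 and a range of ratios from 0.527 to 3.66, and those with fractional counts 0.17 and 0.752 to 9.20. The leading Cluster-7663.22653 had whole counts, while Cluster-7663.22791 and Cluster-7663.22830 did not.

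Each identifier carries 2 numbers, and clusters with the same first number were treated as 1 group, a reading that the labels do not give. All 107 clusters, like all 1467 of 100 to 1000 CPM, shared the first number of their identifiers, against 83.3% of the clusters passing 1 CPM. Within these 45612 clusters, numbered from 0 to 45611, abundant clusters sat close together. The 2000 numbers from 22000 held 99 of the 107 clusters and 42.1% of the mean share of counts. The median level fell off on both sides, from 41.4 CPM in that range to 0.652 CPM in the lowest 2000 numbers and 1.01 CPM in the highest.

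The clusters outside the range included the extremes of the ratio. Of 8 such clusters, 5 were within 2000 numbers of it and had ratios from 0.972 to 1.33. The 3 farther away were Cluster-7663.29334 and Cluster-7663.19281, with the 2 highest ratios of the set (9.20 and 3.88), and Cluster-7663.37543, with the lowest (0.527). Inside the range, ratios ran from 0.669 to 3.66. At 100 to 1000 CPM the share of called clusters was 4.01% (exact binomial 95% interval 2.53 to 6.02) inside the range, 2.20% (1.14 to 3.81) within 2000 numbers of it and 5.09% (3.09 to 7.84) farther away. These intervals treat clusters as independent, and the shares showed no steady order with distance. The place in the numbering was examined after the values were seen, and what sets the numbers is not given in the sources used here.

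**Figure D5:**
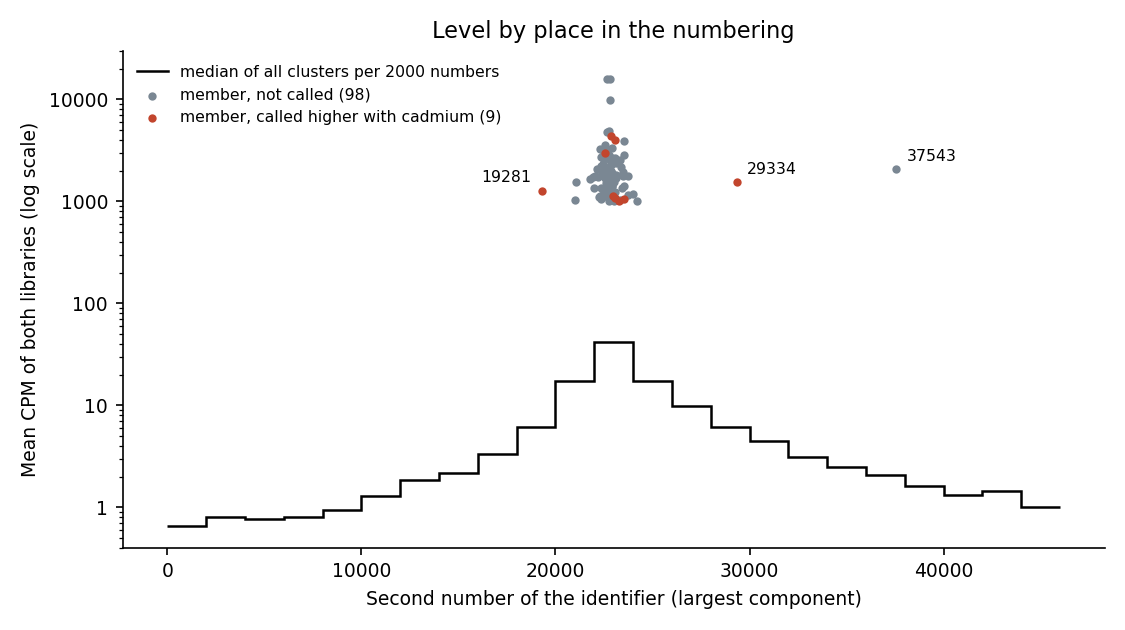
Mean CPM of both libraries (y axis, log scale) against the second number of the identifier (x axis), 1 point per cluster of the set, red for the 9 called clusters, with a stepped line for the median of all clusters of the same group per 2000 numbers. The line peaks at 41.4 CPM in the range that holds 99 of the 107 clusters, and Cluster-7663.19281, Cluster-7663.29334 and Cluster-7663.37543 lie farthest from it.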

How the data were processed

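Leaf RNA of 1 untreated and 1 cadmium-treated library was analysed from the authors' table of each library. The deposited estimated counts have 2 decimals and no normalization. The authors' FPKM values are, per the file headers, scaled for cluster length and sequencing depth. Bowtie2 2.0.6 and TopHat2 2.0.9 appear in the submitters' processing notes; the assembler, counter, reference and strand handling: not given in the sources used here. Tables were joined on the identifier. The set, its limit of 1000 CPM and the rules for named clusters were chosen with earlier results of these data known. Counts were rounded to whole numbers, clusters with at least 1 CPM in at least 1 library kept (36565) and libraries scaled by TMM (edgeR 4.0.16, R 4.3.3; factors 1.02 for untreated and 0.979 for cadmium). Ratios carry exact (Clopper-Pearson, conditional binomial) 95% intervals from scipy 1.17.1, and log2 ratios a pseudocount of 1 count. Lacking replicates, no test was run and p-values are absent. Intervals cover counting error only and take every rounded count as an independent read. Reads are not described as carrying molecular identifiers, so copies of the same molecule may have been counted more than once. Named were the 10 most abundant clusters, all called ones, the 5 highest and lowest ratios, the 3 on each side of the limit, the 3 shortest, longest, and largest climbs and drops in rank, and others stated as chosen after their values were seen. Alternatives covered scaling (DESeq2 1.42.0 size factors, library totals, FPKM), limits, assumed spread and the choice of clusters. Gene lists for photosynthesis, metal binding, translation and leaf markers gave no result, as identifiers have no names.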

Additional observations from a re-analysis of the deposited data

How the results depend on the processing

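No paired analysis was possible because the untreated and cadmium groups hold 1 library apiece, so leaving one out gives no value; depth and the unmeasured variation among plants limit every ratio. The number of clusters called higher, reported as 9, was 8 with library totals and with FPKM ratios, and 9 with DESeq2 size factors, without the filter on low counts and by the point estimate. It was 14 beyond 1.5-fold, where 1 was lower, and 5 beyond 3-fold. With an assumed coefficient of variation between libraries of 0.2 and 0.4 it was 3 and 1. How many of all clusters stay called under those spreads was not computed. Without an assumed spread, 4.02% of all 36565 clusters passing the filter were called higher and 3.85% lower beyond 2-fold. The median log2 ratio of 0.08 was 0.019 with library totals and 0.018 with FPKM ratios, and stayed at 0.08 with pseudocounts of 0.5 and 5. Of the choices of clusters, a mean above 500 CPM gave 211 clusters with 30.2% of untreated and 32.0% of cadmium counts, 12 higher and 3 lower. A mean above 2000 CPM gave 38 clusters with 13.5% and 14.7%, of which 3 were higher. Above 1000 CPM in both libraries the shares were 21.6% and 23.2%, with 3 higher. By the untreated library alone they were 23.0% and 24.1%, with 3 higher and 2 lower. By the cadmium library alone they were 22.4% and 24.8%, with 9 higher and 0 lower. The top 107 by FPKM held 19.2% and 21.0%, with 8 higher and 3 lower. They included 22 clusters from outside the set with effective lengths under 300 bases. Without the clusters under 300 bases the shares were 22.6% and 24.7%, and with whole counts only 15.7% and 16.8%, with 5 higher. Where these counts and shares moved, they did so by construction, as other clusters or limits were used. Of the 33 clusters named by rule, many for extreme ratios, Cluster-7663.22552 alone changed direction, with library totals and with FPKM ratios. Over the whole set of 107 more did so. Ratios above 1 numbered 67 as reported, 57 with library totals and 56 with FPKM ratios. Effective lengths taken from the cadmium library differed by at most 1.82% within the set.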

Other observations

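The effective lengths of the 107 clusters differed by a nearly constant amount between the libraries. The cadmium value was larger by a median of 1.68 bases, and 101 of the 107 differences lay within 0.05 bases of it. Among the 1246 clusters whose FPKM reached 100 in both the median difference was also 1.68 bases, and 85.2% lay within 0.05 bases of it. The 6 others included Cluster-7663.22888, with 1207 bases without and 1215 bases with cadmium, a difference of 8.54 bases, and Cluster-7663.22351, with 2359.5 and 2364 bases, a difference of 4.04 bases. Both had cadmium to untreated ratios close to 1, at 0.980 for each. The differences of the remaining 4 were 1.45 bases for Cluster-7663.22625, the shortest cluster of the set, 1.63 for Cluster-7663.23530, the longest, 1.78 for Cluster-7663.22775, the third longest, and 1.62 for the called Cluster-7663.23286. FPKM rounding alone leaves the untreated length of Cluster-7663.23530 between 6622.51 and 6622.65 bases. For Cluster-7663.22775 it lies between 5737.37 and 5737.55, and for Cluster-7663.23286 between 2856.45 and 2856.64. Cadmium lengths carry such rounding too, so the differences of these clusters cannot be told apart from 1.68. For long clusters of low FPKM the limit of 0.05 bases is tighter than the rounding. What sets the lengths was not tested.

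The set holds 12 pairs of clusters with consecutive numbers. Within a pair the ratios differed by between 1.02-fold and 2.47-fold, and unpaired clusters were not compared. Widest apart were Cluster-7663.23055 and Cluster-7663.23056, with ratios of 1.35 and 3.33 and lengths of 567 and 2402 bases. For the next widest, Cluster-7663.22527 and Cluster-7663.22528, the ratios were 2.24 and 0.973, with lengths of 1227 and 1413 bases. All other pairs differed by at most 1.74-fold. The closest pair, Cluster-7663.22920 and Cluster-7663.22921, had ratios of 1.16 and 1.18. These pairs were picked after their values were seen.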
